A study of Homo sapiens with 28 samples.

Results

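The effect of SNX631 on gene expression in androgen-stimulated LNCaP cells was measured by RNA-Seq at 72 h. LNCaP is an androgen-responsive human prostate cancer cell line, R1881 is a synthetic androgen, and SNX631 is an inhibitor of the Mediator kinases CDK8 and CDK19. The comparison was chosen by treatment label and uses 8 of the 28 libraries of the series: 4 libraries of cells given R1881 at 1 nM with SNX631 at 500 nM, and 4 libraries of cells given R1881 at 1 nM without the inhibitor. Before treatment all cells were kept without androgen, in charcoal-stripped serum, which lacks most steroid hormones. Matched groups at 72 h received SNX631 at 500 nM without R1881 (4 libraries) or vehicle, 0.1% DMSO (4 libraries). Libraries of a separate experiment at 24 h, with R1881 at 0.1 nM alone (3 libraries) or together with a different inhibitor, Senexin B (3 libraries), are set beside the main comparison for some genes. The labels give Senexin B at 1 µM, whereas the study's text gives another dose. Since every group comes from this single cell line in culture, no stroma or host tissue was present.

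Androgens act on transcription through DNA elements near their target genes, to which coactivators are recruited. Among these is the Mediator complex, which connects enhancer-bound factors with RNA polymerase II. CDK8 and CDK19 sit in a detachable module of Mediator together with cyclin C, MED12 and MED13, and their kinase activity can raise or lower transcription depending on the gene. In prostate cells the best-known androgen targets are the kallikreins KLK3, which encodes prostate-specific antigen (PSA), and KLK2. The 2 genes lie side by side on chromosome 19. Their upstream sequences are shown because KLK2 and KLK3 were the androgen targets with the largest decreases. Each run is the 250 bases before the gene start in RefSeq (GRCh38.p14, plus strand, KLK3 at chr19:50854665-50854914 and KLK2 at chr19:50873189-50873438), and capitals mark a match to GAACA and GTNCT separated by any 4 bases, a permissive spelling of the androgen response element that was chosen after the sequences were seen.
KLK3: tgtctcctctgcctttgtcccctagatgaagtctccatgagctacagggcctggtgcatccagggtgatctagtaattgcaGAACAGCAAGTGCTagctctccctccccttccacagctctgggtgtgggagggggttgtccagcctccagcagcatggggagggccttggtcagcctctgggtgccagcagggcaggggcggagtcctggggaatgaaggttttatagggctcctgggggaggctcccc
KLK2: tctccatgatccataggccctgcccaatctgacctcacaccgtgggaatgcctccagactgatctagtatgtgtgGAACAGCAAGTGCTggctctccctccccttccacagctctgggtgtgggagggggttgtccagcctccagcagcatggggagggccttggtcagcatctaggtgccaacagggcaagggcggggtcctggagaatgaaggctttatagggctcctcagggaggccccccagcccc
The match began at position -169 of KLK3 and at position -175 of KLK2, counted from the gene start. On either strand it was present in 0.234% of the 27305 promoters of the RefSeq table and in 0.109% of the 10961 promoters matched to tested genes. Among genes lower with SNX631 it was found in 2 of 248 matched promoters, those of KLK2 and KLK3 that had been seen when it was spelled, and among genes higher with SNX631 in 0 of 201, so these counts say nothing about the direction of change. The shorter AGAACA was searched on either strand over 300 bases that extend past the gene start, a longer window than the 250 bases used above. It was present in 10.9% of the promoters of lower genes, 11.4% of those of higher genes and 8.78% of those of all tested genes. This shorter match was found at KLK3 and not at KLK2. A match is a description of the letters and does not show a bound site.

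Libraries held 9846595 to 12358312 counts with R1881 and 13176514 to 15248512 counts with R1881 and SNX631, so the groups did not overlap in depth. When all libraries at 72 h were thinned to the smallest total, 632 genes were called instead of the 663 given below. Replicates were close, and the common biological coefficient of variation was 2.38%. The first principal component of the 8 libraries (43.3% of the variance) separated the groups, and on the second (11.9%) replicate 1 of the R1881 group stood apart at 24.2 against -9.12 to 3.22 for the remaining libraries. Without that library 664 genes were called. Luminal prostate markers were present in every library, with summed levels of 6012 to 6030 CPM (counts scaled to the same library depth) with R1881 and 5531 to 5568 CPM with R1881 and SNX631, and 0 of 10 were at 0. Markers of other cell types were detected at low levels. The sum of 8 basal epithelial markers, most of it from DST, was 21.4 to 23.3 CPM with R1881 and 19.6 to 23.9 CPM with SNX631, and 2 of the 8 were at 0 in each group. The sum of 10 fibroblast markers, most of it from COL1A1, was 19.0 to 26.4 CPM and 14.5 to 17.3 CPM, with 4 and 3 at 0. The sum of 10 leukocyte and endothelial markers, led by VWF, was 3.92 to 5.39 CPM and 3.44 to 4.23 CPM, with 5 and 4 at 0. KRT5, PDGFRA, POSTN, PTPRC, CD3E and CDH5 were among those at 0 in both groups.

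SNX631 changed 663 of 16074 genes tested in the presence of R1881 (4.12%), using an adjusted p under 0.01 and a fold change over 1.5 as the criteria. Of these, 303 genes were higher (1.89%) and 360 were lower (2.24%). The effects were mostly moderate, with a median log2 fold change of 0.73 among the genes that rose and -0.80 among those that fell, and 158 genes changed by more than 2-fold (63 higher and 95 lower). A change of more than 4-fold was seen for 6 genes that rose and 7 that fell. Without the fold limit, 2855 genes (17.8%) were higher and 2471 (15.4%) were lower at the same adjusted p, so smaller shifts were widespread in both directions, and the median of all genes was -0.01 on the log2 scale. The shares of all genes given here, with and without the fold limit, are the background for each list count of this comparison below. For list counts of SNX631 without R1881 the background is 454 higher and 312 lower of the 16074 genes. Throughout, log2 fold changes carry the standard error (SE) of the edgeR fit, adjusted p values come from its quasi-likelihood test across all genes, and levels are CPM with TMM scaling.

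The called genes were of several kinds. Protein-coding genes gave 249 higher and 277 lower of 12812 tested. Long non-coding RNAs gave 29 higher and 61 lower of 1942, and pseudogenes gave 16 and 13 of 725. Genes were also classed by their mean in the higher group, so a change could itself move a gene up a class. The share called was 1.76% under 1 CPM, 8.04% at 1 to 5 CPM and 1.82% at 100 CPM or more. In the last class 34 genes rose and 15 fell.

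The transcripts of the kinases themselves were little affected. CDK8 was at 22.8, 24.5, 23.4 and 21.1 CPM in the 4 libraries with R1881 and at 20.2, 23.0, 22.9 and 22.7 CPM with R1881 and SNX631. The groups overlapped, and the log2 fold change was -0.05 ± 0.071 (SE, adjusted p = 0.633). CDK19 was at 352, 335, 363 and 354 CPM with R1881 and at 444, 459, 441 and 423 CPM after SNX631 was added. All 4 libraries with SNX631 were above all 4 without it, and the log2 fold change of 0.33 ± 0.026 (adjusted p = 2.48e-13) passed the adjusted p without reaching the fold limit. None of the 7 genes of the kinase module was called (0 higher and 0 lower). MED13L (-0.35), MED12 (-0.22) and MED13 (-0.14), which encode the structural subunits of the module, passed the adjusted p alone with lower levels, a count that became 1 without replicate 2, 3 or 4 of the R1881 group or replicate 4 of the R1881 and SNX631 group. Of the 26 core subunits of Mediator, 0 were called.

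Androgen target genes were split between a few that fell and many that did not reach the criteria. Of 119 listed androgen targets tested, 13 fell and 0 rose with SNX631, and the list had a median log2 fold change of -0.10 against -0.01 for all genes. Without the fold limit 54 targets were lower and 28 were higher, against 15.4% and 17.8% of all genes. R1881 itself raised 97 of these 119 genes and lowered 1 (median log2 fold change 1.66, relative to vehicle), in a comparison that shares the 4 R1881 libraries and in which 3185 genes (19.8%) were called.

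KLK2 (ENSG00000167751.13) was at 334, 344, 330 and 354 CPM in the R1881 libraries and at 84.3, 84.4, 93.0 and 99.9 CPM with SNX631 added. The groups were far apart, and the log2 fold change was -1.91 ± 0.036 (adjusted p = 4.85e-32). The level with both agents stayed well above that of vehicle-treated cells, 1.94 ± 0.11 CPM (SD, n = 4). KLK3 (ENSG00000142515.16) was at 131, 134, 148 and 142 CPM with R1881 and at 48.4, 46.1, 45.7 and 44.5 CPM with R1881 and SNX631. Again no library of the treated group reached the lowest of the controls, and the log2 fold change was -1.59 ± 0.043 (adjusted p = 4.69e-27).

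Other androgen targets fell by less. SGK1, a serum- and steroid-induced kinase, was at 6.49, 5.31, 5.35 and 4.65 CPM with R1881 and at 2.56, 2.57, 2.89 and 3.15 CPM with SNX631. It fell by 0.95 on the log2 scale (SE 0.15, adjusted p = 2.71e-06) without overlap of the groups. IQGAP2, a scaffold protein, was at 89.0, 92.8, 97.6 and 88.7 CPM with R1881 and at 55.9, 55.3, 54.1 and 52.2 CPM with the inhibitor, a log2 fold change of -0.76 ± 0.041. CHRNA2, a nicotinic receptor subunit, had a log2 fold change of -1.24 ± 0.045, and INPP4B, a phosphoinositide phosphatase, of -0.74 ± 0.079. AKAP12 (-0.79), MERTK (-0.69), KRT19 (-0.64), PTPN21 (-0.60) and PTGER4 (-0.60) also fell. The 2 remaining called targets, ADAM7 and ORM2, were at 1.33 and 1.15 CPM with R1881, and each lost its call when 1 library was left out.

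FKBP5 and TMPRSS2, widely used androgen targets picked here after their values were seen, did not fall. FKBP5, a cochaperone of steroid receptors, was at 715, 696, 705 and 700 CPM with R1881 and at 759, 790, 757 and 749 CPM with SNX631, higher without overlap but by only 0.12 ± 0.022 on the log2 scale. TMPRSS2, a membrane protease, had a log2 fold change of -0.07 ± 0.028 (adjusted p = 0.0567).

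**Figure D1:**
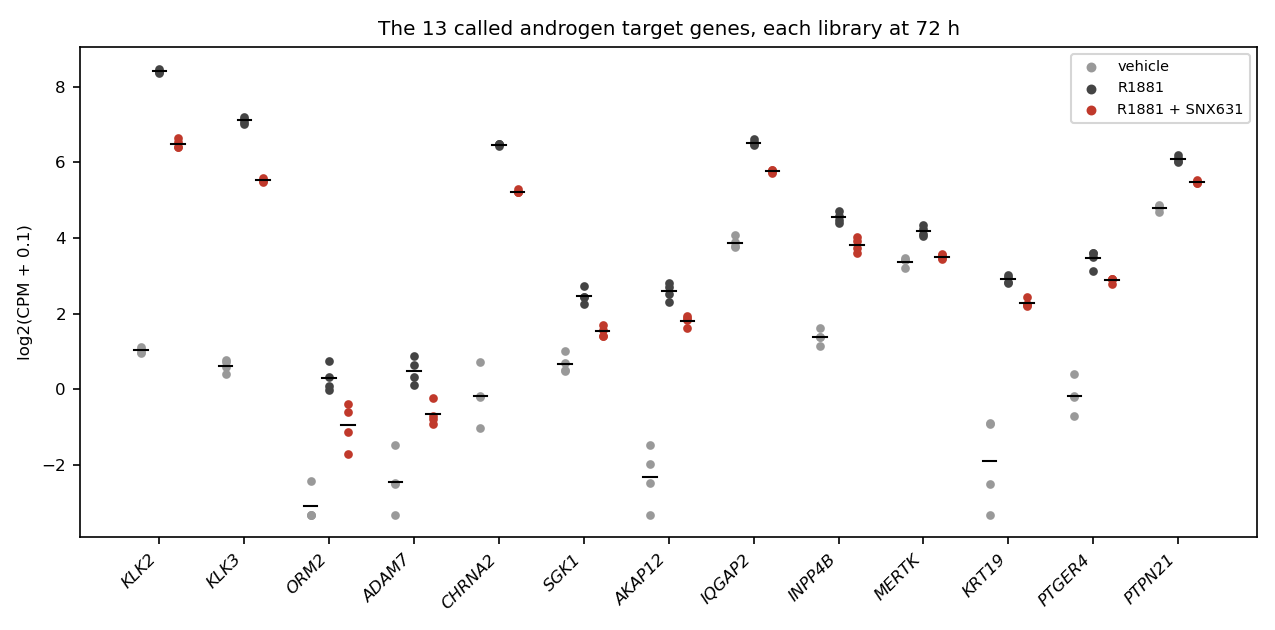
Levels of the 13 androgen targets that fell with SNX631, as log2(CPM + 0.1) in each library of vehicle, R1881 and R1881 with SNX631 at 72 h. Every point is a library. KLK2 and KLK3 lie far above vehicle in both R1881 groups and lower with SNX631 than without it.

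Of 18 genes of prostate secretion tested, a list that includes both kallikreins, 6 fell, 0 rose and 12 were not called, with a median log2 fold change of -0.37. At the adjusted p alone 10 were lower and 1 was higher. Without replicate 1 of the R1881 group the 6 became 4 and the 10 became 7. Besides KLK2, KLK3 and ORM2 the 6 were TFF3 (-1.05 ± 0.21), a trefoil peptide, PSCA (-0.93 ± 0.19), a surface antigen of prostate cells, and AGR2 (-0.65 ± 0.20), a secretory-pathway disulfide isomerase. The last 3 were at low levels, 2.84, 3.38 and 2.62 CPM with R1881. Of 24 genes known to be repressed by androgen, 2 rose and 3 fell. CAMK2N1, an inhibitor of CaMKII, was at 3.35, 5.14, 2.32 and 2.02 CPM with R1881 and at 8.78, 9.07, 8.80 and 10.4 CPM with SNX631, a log2 fold change of 1.52 ± 0.16. Without R1881 the SNX631 effect on CAMK2N1 was 1.45, and no interaction was called (0.07). The largest change of the list was the fall of CCN3 (-1.82), at 0.538 CPM with R1881 and with a call that was lost without 1 library. The 2 that rose became 3 when replicate 1 of the vehicle libraries was omitted, and 1 when replicate 3 given R1881 with SNX631 was omitted. The 3 that fell became 1 when replicate 2 of the R1881 group or replicate 4 of the R1881 and SNX631 group was left out.

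The genes of UDP-glucuronosyltransferases of the UGT2B family, which conjugate steroids including androgens for excretion, gave some of the largest decreases. Of 9 genes listed as UGT2B enzymes and tested, 4 fell and 1 rose. UGT2B28 was at 75.2, 73.3, 73.4 and 70.0 CPM with R1881 and at 17.2, 19.6, 18.8 and 18.2 CPM with R1881 and SNX631. UGT2B10 was at 25.5, 25.0, 27.6 and 28.8 CPM and at 6.71, 7.43, 7.01 and 6.30 CPM in the same groups. The groups were far apart for both, with log2 fold changes of -1.98 ± 0.053 and -1.96 ± 0.074. The more abundant UGT2B11 (-1.24 ± 0.027) and UGT2B15 (-1.11 ± 0.033) fell as well. UGT2B7 went the other way, from 1.36, 1.49, 0.713 and 1.84 CPM to 3.67, 3.29, 2.61 and 3.81 CPM, a log2 fold change of 1.29 ± 0.20. UGT2B17, which inactivates dihydrotestosterone, had a value of -0.46 and was not called. Without R1881, SNX631 lowered 5 of the 9 genes and raised 1, beside 312 lowered and 454 raised of all 16074 genes. The list median was -0.76 without R1881 against -0.46 with R1881. For UGT2B10 the value was -2.43 without R1881, and for UGT2B28 it was -1.05. Among the 9, an interaction was called for UGT2B28 alone (-0.93).

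The UGT2B genes are close copies of one another and of several pseudogenes, so how the counting shared reads among them bears on each value. The neighbours UGT2B11, UGT2B28 and the pseudogenes UGT2B25P and UGT2B24P were called lower as an unbroken run of tested genes on chromosome 4 (GRCh38, positions 69199951 to 69423164), with log2 fold changes between -2.60 and -1.24. R1881 alone lowered 7 of the 9 listed genes and raised 2. Among the other steroid-metabolizing enzymes, 2 of 25 fell and 1, CYP1A1 (0.72), rose. CYP1A1, a cytochrome P450, lost its call under 16 of 26 alternatives, among them the replicate block and leaving out any 1 of the 8 libraries compared, and the number that rose was 0 without replicate 1 of the R1881 group but 2 when vehicle replicate 3 was omitted. CYP3A43, also a cytochrome P450, was at 1.88, 1.74, 2.76 and 2.28 CPM with R1881 and at 0.639, 0.714, 0.344 and 0.953 CPM with SNX631 (-1.71 ± 0.29), and SULT2B1, a steroid sulfotransferase, fell by 0.76 on the log2 scale.

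**Figure D2:**
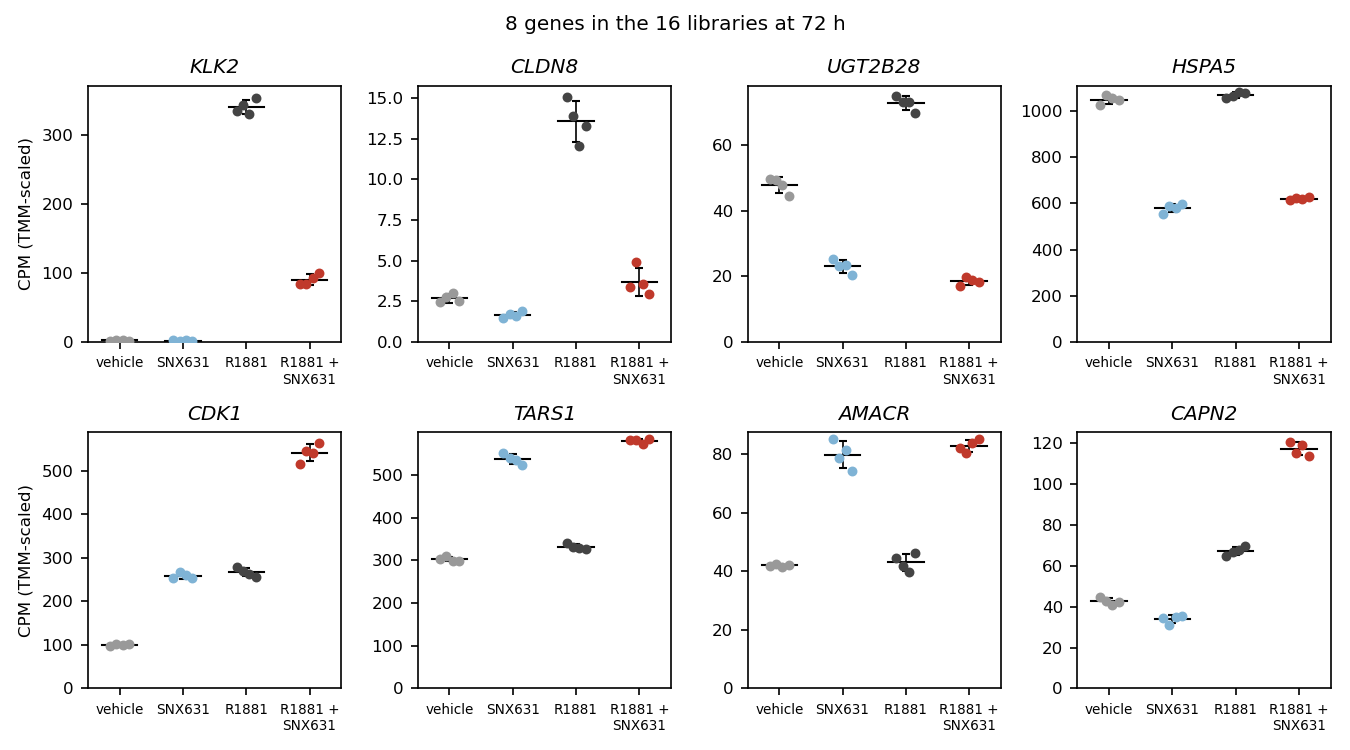
Level in CPM of KLK2, CLDN8, UGT2B28, HSPA5, CDK1, TARS1, AMACR and CAPN2 in the 16 libraries at 72 h, 4 per group. Points are libraries, the line is the group mean and the bars are the SD. In each of the 8 genes the R1881 with SNX631 points lie apart from the R1881 points.

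Genes of cell division were higher with SNX631, mostly by less than the fold limit. Of 56 genes of DNA replication, 54 were higher and 0 lower at the adjusted p alone, against 17.8% and 15.4% of all genes, with a median log2 fold change of 0.47. Of 77 genes of mitosis, 75 were higher and 1, CENPN (-0.24), was lower, with a median of 0.53. With the fold limit 5 replication genes and 17 mitosis genes rose and 0 fell. Since many members lie near that limit, the last count varied, with 13 when replicate 1 and 26 when replicate 3 of the R1881 group was left out and 10 with scaling to library totals only. The count for replication was 8 without replicate 1 of the R1881 and SNX631 group and 3 with scaling to library totals only.

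CDK1, the kinase that drives entry into mitosis, was at 279, 269, 262 and 257 CPM with R1881 and at 516, 545, 540 and 564 CPM with SNX631. The log2 fold change was 1.02 ± 0.028 (adjusted p = 4.69e-27), the largest of both lists. MCM4, a subunit of the replicative helicase, was at 184, 189, 181 and 193 CPM and at 292, 295, 286 and 301 CPM (0.65 ± 0.029). MAD2L1 (0.70 ± 0.041), of the spindle checkpoint, CENPI (0.68 ± 0.063), of the kinetochore, and HMMR (0.67 ± 0.039), a microtubule-associated protein, rose too. NUSAP1 (0.68 ± 0.045) lies next to OIP5 in a run of genes called higher and overlaps it, so its reads may be shared.

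R1881 alone raised 49 of the 56 replication genes and 75 of the 77 mitosis genes, with median log2 fold changes of 1.05 and 1.46, in the comparison that shares the R1881 libraries. Without R1881, SNX631 raised 39 and 66 of them, with medians of 0.74 and 0.96, beside 454 raised of all 16074 genes. A difference between the SNX631 effects, tested as an interaction, was called for 9 replication genes and 10 mitosis genes, and in each of these the effect was smaller with R1881. MCM10, a replication initiation factor, had an SNX631 effect of 0.62 with R1881 and 1.39 without it (interaction -0.77). In cultured cells, more cycling cells and more RNA per cycling cell cannot be told apart from these values.

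MYC, the growth-promoting transcription factor, was at 230, 223, 218 and 228 CPM with R1881 and at 358, 342, 350 and 344 CPM with SNX631, all 4 higher, with a log2 fold change of 0.63 ± 0.027 (adjusted p = 6.75e-21). Of 84 genes of ribosome biogenesis, many of which are MYC targets, 67 were higher and 0 lower at the adjusted p alone (median 0.25), and 2 rose by the fold criterion. IMP4, of the small-subunit processome, was at 105, 102, 108 and 111 CPM and at 179, 158, 170 and 178 CPM (0.69 ± 0.039). WDR75, which acts in the same complex, had a log2 fold change of 0.63 ± 0.036. Of 79 cytosolic ribosomal protein genes 66 were higher and 1 lower at the adjusted p alone, with a median of 0.12, and 0 were called. Of 76 respiratory chain genes 25 were higher and 1 lower (median 0.07), and 0 were called.

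**Figure D3:**
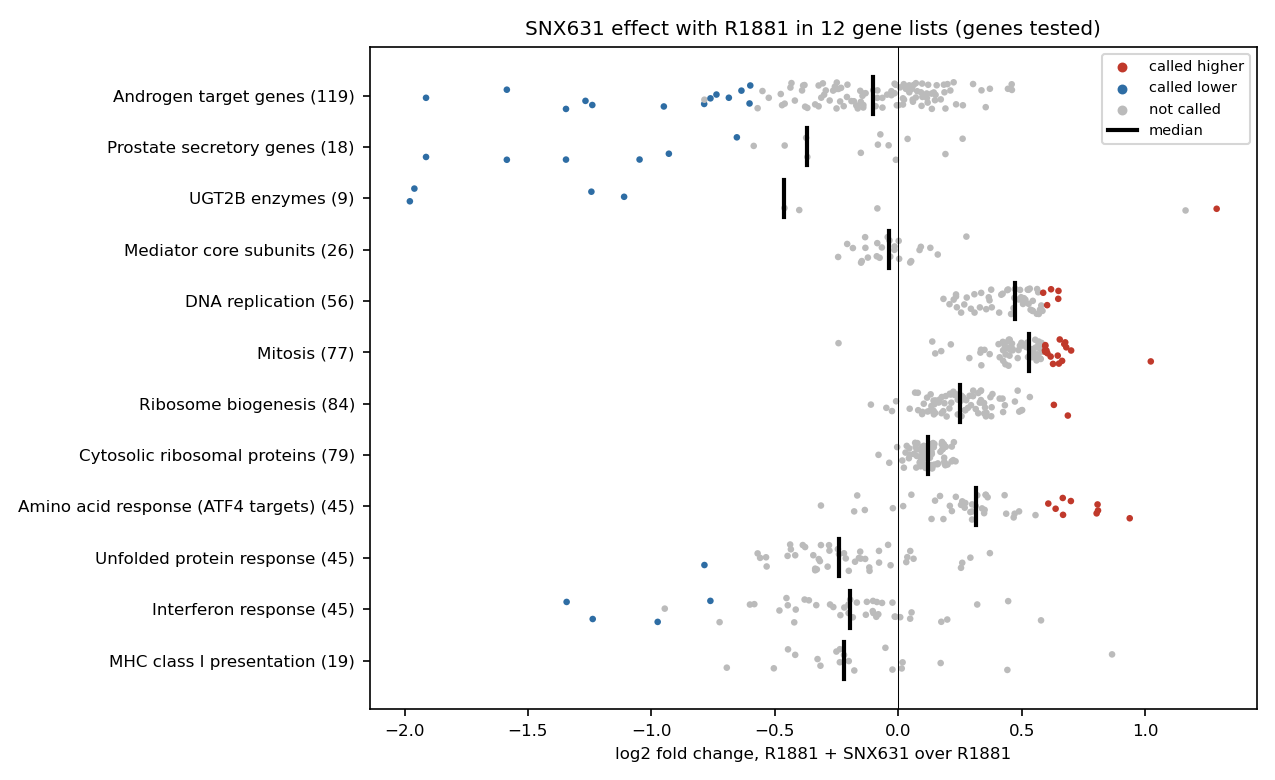
Log2 fold change of R1881 with SNX631 over R1881 for the members of 12 gene lists. Each row is a list, each point a gene placed along the horizontal axis by its log2 fold change, and the vertical bar is the list's median. All DNA replication genes and all mitosis genes but CENPN lie to the right of 0, and those of the unfolded protein response lie mostly to the left.

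Genes of endoplasmic reticulum folding and genes of the amino acid response moved in opposite directions. HSPA5, the main chaperone of the endoplasmic reticulum (BiP), was at 1055, 1066, 1082 and 1079 CPM with R1881 and at 615, 622, 619 and 629 CPM with SNX631. The 4 treated libraries lay close together and far below the controls, and the log2 fold change was -0.79 ± 0.021 (adjusted p = 4.69e-27). It was the only called gene of 45 in the unfolded protein response list, a count that became 2 without replicate 3 of the R1881 group or replicate 2 or 4 of the R1881 and SNX631 group, and 3 with scaling to library totals only. At the adjusted p alone 29 members were lower and 4 higher (ERO1A, ATF4, TRIB3 and XBP1), with a median of -0.24. The chaperones HSP90B1 (-0.53 ± 0.021) and CALR (-0.42 ± 0.022), named after their values were seen, were among the 29.

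Of 45 targets of ATF4, the transcription factor of the amino acid response, 9 rose and 0 fell, and at the adjusted p alone 36 were higher and 2 lower (SLC38A2 and NUPR1), with a median of 0.31. The 2 lower became 1 with the replicate block, and also without replicate 1, 2 or 4 of either R1881 group. TARS1, the threonyl-tRNA synthetase, was at 340, 331, 328 and 326 CPM with R1881 and at 582, 581, 573 and 584 CPM with SNX631 (0.81 ± 0.022, adjusted p = 1.08e-26). Without R1881 its log2 fold change was 0.83, and no interaction was called (-0.02). SLC6A9, a glycine transporter, was at 10.1 ± 0.90 CPM (SD, n = 4) with R1881 and at 17.6 ± 0.68 CPM with SNX631, without overlap (0.80 ± 0.087). Its effect without R1881 was 0.05, and the interaction of 0.75 was called. The serine synthesis enzyme PSAT1 (0.64), the mitochondrial folate enzymes MTHFD2 (0.61) and MTHFD1L (0.67), the transporters SLC1A5 (0.70) and SLC1A4 (0.67), the secreted factor STC2 (0.81) and CHAC1 (0.94), which degrades glutathione, also rose. Of the 9, only TARS1 was called without R1881, where the list's median was 0.15. In the list of 45 an interaction was called for SLC6A9 alone, so for the other members a difference was not shown.

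Interferon-stimulated genes that were called fell. Of 45 tested, 4 fell and 0 rose (median -0.20). HERC5, a ligase for the ubiquitin-like ISG15, was at 13.4, 13.3, 13.3 and 12.1 CPM with R1881 and at 5.27, 4.86, 5.43 and 4.91 CPM with SNX631 (-1.34 ± 0.096). Its neighbour HERC6 (-1.24 ± 0.10) fell too, and both lie in a run of 3 lower genes on chromosome 4 (88284942 to 88506163, GRCh38). IFIT2 (-0.97 ± 0.19) and IFI44 (-0.76 ± 0.19) were at 3.11 and 3.77 CPM with R1881. Without R1881, 8 of the 45 fell and 0 rose, beside 312 lower and 454 higher of all 16074 genes. Of 19 genes of MHC class I presentation 0 were called, with 9 lower and 1 higher at the adjusted p alone. HLA-DMA (-1.01 ± 0.11) and HLA-DMB (-1.14 ± 0.20), which load peptides on MHC class II and were named after their values were seen, were called lower.

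Transcription factors of prostate lineage and Notch genes changed one by one. KLF5 was at 40.9, 45.4, 44.3 and 41.3 CPM with R1881 and at 20.6, 21.7, 19.9 and 18.5 CPM with SNX631 (-1.09 ± 0.058). SOX4 was at 472, 456, 446 and 446 CPM and at 286, 292, 287 and 310 CPM (-0.63 ± 0.029), whereas SOX9 went from 9.23 ± 1.5 CPM (SD, n = 4) to 16.6 ± 0.73 CPM (0.86 ± 0.090). No group overlapped for any of these. Both SOX genes had an interaction, since without R1881 the value of SOX4 was 0.30 and that of SOX9 was -0.51. These were the 3 called genes of 21 lineage factors tested.

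JAG1, a Notch ligand, was at 58.8, 64.1, 63.9 and 55.4 CPM with R1881 and at 33.9, 32.8, 30.9 and 30.6 CPM with SNX631 (-0.92 ± 0.052, interaction -0.78). Of 27 Notch pathway genes 2 fell, JAG1 and HES2 (-0.99 ± 0.12), and 2 rose, HES4 (0.65 ± 0.078) and DTX4 (1.12 ± 0.11). Among 38 genes of ERBB, IGF and PI3K signalling 5 fell and 1, the receptor MET, rose, at 0.659 CPM with R1881 and with a call that was lost without 1 library. Those that fell were INPP4B and SGK1, described above, with SGK3 (-0.59), PIK3IP1 (-0.63), an inhibitor of PI3K, and IGF1 (-0.71).

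Junction and matrix genes changed in both directions. CLDN8, a claudin of tight junctions, was at 15.1, 13.9, 12.0 and 13.3 CPM with R1881 and at 3.35, 4.93, 3.58 and 2.93 CPM with SNX631, a log2 fold change of -1.86 ± 0.11 (adjusted p = 3.78e-16). In contrast, CLDN12 (0.78 ± 0.027) and OCLN (0.66 ± 0.053), which encodes occludin, rose. TJP3 (-0.71 ± 0.082) and KRT19 fell, so that 2 of 26 keratin and junction genes were higher and 3 lower. Of 29 matrix and mesenchymal genes 5 rose and 2 fell, of which SNAI1 (1.19 ± 0.33) and ITGB4 (-0.60 ± 0.16) each lost the call without 1 library. COL12A1, a fibril-associated collagen, was at 6.07, 7.21, 6.15 and 6.23 CPM and at 15.8, 18.3, 19.0 and 13.2 CPM (1.37 ± 0.11). FN1, fibronectin, rose by 0.67 ± 0.039, COL5A2 by 0.65 ± 0.12 and COL3A1 by 1.27 ± 0.23, whereas COL1A1, a fibrillar collagen, fell by 0.85 on the log2 scale. COL1A1 and COL3A1 were also in the fibroblast marker list, whose summed level was 19.0 to 26.4 CPM with R1881 and 14.5 to 17.3 CPM with SNX631, with PDGFRA and POSTN at 0 in both groups.

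In fatty acid metabolism 2 of 49 genes rose and 3 fell. AMACR, a racemase of branched fatty acids used as a prostate cancer marker, was at 44.4, 41.8, 39.6 and 46.2 CPM with R1881 and at 81.9, 80.5, 83.7 and 85.1 CPM with SNX631 (0.95 ± 0.044), but it overlaps the readthrough gene C1QTNF3-AMACR and may share its reads. Among those that fell were ELOVL7 (-0.62 ± 0.036), a fatty acid elongase, and ACOX2 (-0.67 ± 0.11), a peroxisomal oxidase. No member was called for sterol synthesis (32 genes), the proteasome (33), autophagy and lysosomes (50), NRF2 and redox genes (35), the NF-kB pathway (25), polyamine metabolism (18) or metallothioneins (6). For sterol synthesis the counts at the adjusted p alone were 10 higher and 10 lower.

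Among the 15 genes with the highest increases, PLCH1, a phospholipase C, led with a log2 fold change of 2.20 ± 0.063. RXFP3, a receptor for relaxin-3, was at 0.523, 0.332, 0.624 and 0.527 CPM with R1881 and at 1.60, 2.57, 2.48 and 2.34 CPM with SNX631 (2.16 ± 0.27). CCDC80, a matrix protein, went from 3.15 ± 0.18 CPM (SD, n = 4) to 10.9 ± 1.3 CPM (1.79 ± 0.12). Each showed a gap between the groups. Calcium-binding proteins were represented by NCALD (1.55 ± 0.24) and ANXA2 (1.54 ± 0.24). The receptor CALCRL (1.44 ± 0.16), the long non-coding RNA LINC00836 (1.39 ± 0.24) and MYOZ1 (1.37 ± 0.22) followed. Mean levels with R1881 were low, 1.16 CPM for NCALD, 1.06 for ANXA2, 1.78 for CALCRL, 0.850 for LINC00836 and 1.03 for MYOZ1. CA5BP1, a pseudogene that may share reads with CA5B, was at 12.9, 14.3, 12.4 and 14.8 CPM and at 33.7, 34.8, 34.4 and 33.0 CPM (1.31 ± 0.061). RCSD1 (1.26 ± 0.28), at a mean of 0.839 CPM with R1881, lost its call with DESeq2.

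The 15 lowest included, besides UGT2B genes and their pseudogenes, KLK2, KLK3, CLDN8 and CYP3A43, the potassium channel KCNH6, which was at 3.24, 2.32, 2.23 and 2.46 CPM with R1881 and at 0.958, 0.500, 0.275 and 1.03 CPM with SNX631 (-1.89 ± 0.27). ITGA1, a collagen-binding integrin, was at 2.41, 3.65, 3.39 and 3.34 CPM and at 0.958, 1.29, 1.17 and 0.806 CPM (-1.60 ± 0.20). Both were separated between the groups although their levels were low. LINC00161 (-1.35 ± 0.11), a long non-coding RNA, was at 14.8, 14.3, 13.6 and 12.3 CPM and at 4.55, 5.14, 5.09 and 6.67 CPM. LAT2 (-1.58 ± 0.22), an adaptor of immune receptors, THSD7A (-1.40 ± 0.19), MTMR11 (-1.35 ± 0.17) and the pseudogene ALOXE3P1 (-1.49 ± 0.27) completed the set.

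**Figure D4:**
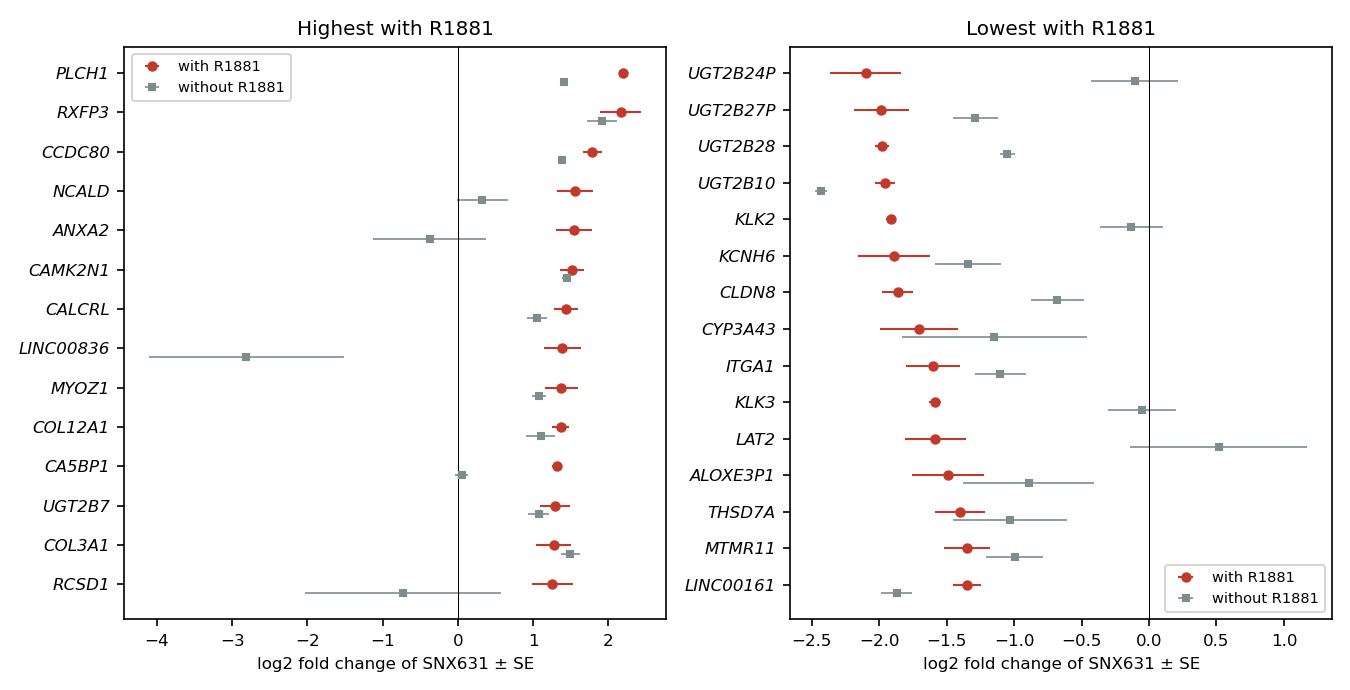
Log2 fold change of SNX631, with SE, for 14 of the 15 most increased genes and the 15 most decreased genes under R1881, shown with R1881 and without it. Of the 29 genes drawn, 17 were called in the same direction without R1881.

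To ask whether the response to SNX631 depended on androgen, the effect was compared with that in androgen-deprived cells, in which SNX631 changed 766 genes (4.77%) relative to vehicle. The comparisons share no library. Of the 663 genes called with R1881, 250 were called in the same direction without it, which is 37.7% of the 663 and 32.6% of the 766, and 0 were called in the opposite direction. The log2 fold change had the same sign in 605 (91.3%). The interaction was called for 192 of all genes (1.19%) and for 75 of the 663. No interaction was called for 135 higher and 221 lower genes that were called only with R1881, so for these a difference was not shown.

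The 75 genes were taken from those called with R1881, a choice that favors a larger effect with R1881 and can raise the share with an interaction. The class counts below therefore do not show which condition gave the larger effects, and the other interaction genes were not classed. Of the 75 genes, 22 higher and 35 lower ones were not called without R1881 and had the larger effect with it. A further 1 higher and 3 lower genes were called in both conditions with the larger effect under R1881. CAPN2, a calcium-dependent protease, was at 67.4 ± 1.9 CPM (SD, n = 4) with R1881 and at 117 ± 3.3 CPM with R1881 and SNX631, whereas without R1881 its value was -0.33 (interaction 1.12 ± 0.061). CA5BP1 had an effect of 0.05 without R1881 (interaction 1.26 ± 0.11). CNTNAP3, a neurexin-family adhesion protein, had 1.00 with R1881 and -0.59 without it (interaction 1.59 ± 0.24), and TENM1, a teneurin, had 0.79 and -0.44 (interaction 1.23 ± 0.21). PRRT2 had 0.73 and -0.54 (interaction 1.27 ± 0.26).

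In the other direction, CEMIP2, a cell-surface hyaluronidase, was at 57.5, 59.0, 58.3 and 57.2 CPM with R1881 and at 33.3, 38.7, 33.7 and 34.7 CPM with SNX631 (-0.72 ± 0.045), while its value without R1881 was 0.49. F5, coagulation factor V, had -0.95 with and 0.37 without R1881, and lost its interaction call in thinned libraries. For KLK2 the value without R1881 was -0.13, between mean levels of 1.94 and 1.78 CPM, and the interaction was -1.78 ± 0.25. The effect was smaller with R1881 in 13 higher genes and 1 lower gene. BMP6, a secreted growth factor, had 0.95 with R1881 and 2.33 without it, and the pseudogene HMGN2P46 had -0.94 and -2.20.

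**Figure D5:**
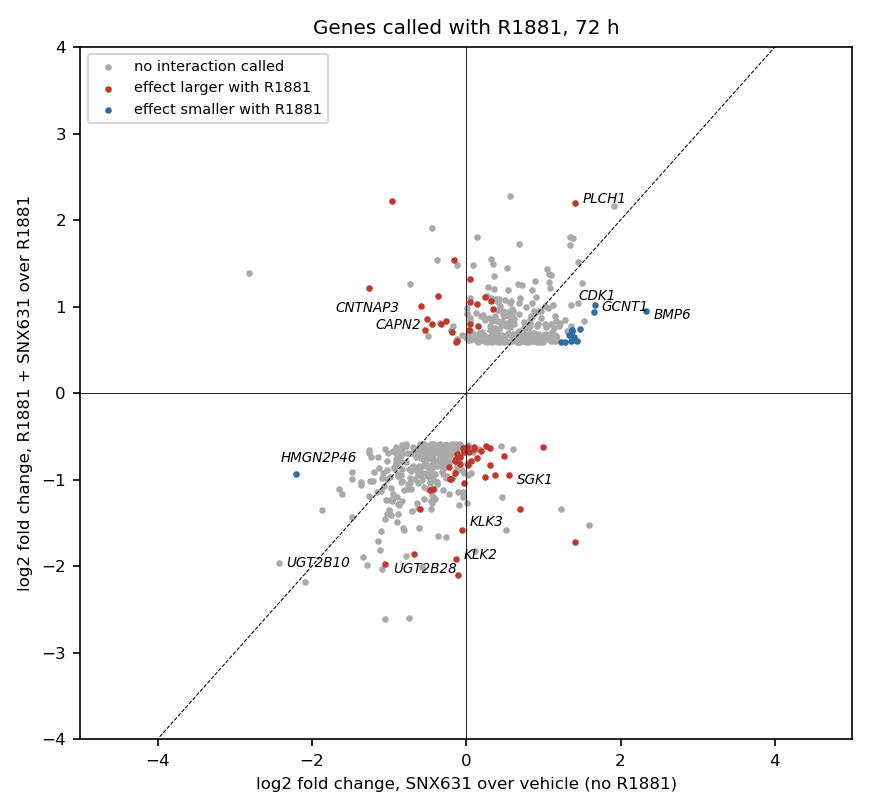
Log2 fold change of SNX631 without R1881 (x axis) and with R1881 (y axis) for 660 called genes drawn, colored by whether the interaction was called, with 2 genes outside the axes. Most points lie in the quadrants of equal sign, where 605 of the 663 genes fell.

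Senexin B, tested at 24 h with R1881 at 0.1 nM, differs from SNX631 in compound, dose, androgen dose and time, so the values are only set side by side. There, 497 of 15948 genes were called (3.12%). Of the 663 genes, 642 were tested in that experiment and 244 were called in the same direction. The log2 fold changes with Senexin B were -2.03 for KLK2, -1.92 for KLK3, -2.23 for CLDN8, -1.47 for UGT2B28 and -2.13 for UGT2B10, beside -1.91, -1.59, -1.86, -1.98 and -1.96 with SNX631. They were 2.16 for PLCH1, 0.96 for AMACR, 0.96 for CAPN2 and 0.73 for TARS1, beside 2.20, 0.95, 0.80 and 0.81. For CDK1 the values were 0.71 and 1.02, for MYC 0.47 and 0.63, and for HSPA5 -0.34 and -0.79, of which only CDK1 was called with Senexin B. Of the 15 highest genes with SNX631, 13 were tested with Senexin B and 9 were called. Of the 15 lowest, 14 were tested and 12 were called. CALCRL (0.41), LINC00836 (0.24) and ALOXE3P1 (-0.67) were not called with Senexin B, beside 1.44, 1.39 and -1.49 with SNX631.

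Some called genes were neighbors. Runs of at least 3 tested genes in a row called in the same direction occurred at 13 places. Besides the UGT2B and HERC runs, IMP4, PTPN18, FAR2P2, CYP4F62P, POTEI and POTEJ were all higher on chromosome 2 (130342225 to 130658091, GRCh38), with log2 fold changes of 0.61 to 0.86, and several of these are copies in a duplicated region whose reads may be shared. COL3A1, COL5A2 and WDR75 were higher on chromosome 2 (188974320 to 189475565). RXFP3, AMACR and C1QTNF3-AMACR were higher on chromosome 5 (33936386 to 34124528), and HLA-DMB and HLA-DMA were lower on chromosome 6 (32934629 to 32969094) with the unnamed gene between them.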

How the data were processed

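Total RNA of LNCaP cells was sequenced with a directional library kit (per the labels). The authors deposited expected counts per gene, which were not scaled to depth, and 16.9% of the deposited values above 0 had a fractional part. The submitters' processing notes name FastQC, cutadapt 2.8, STAR 2.7.2b and featureCounts of Subread 2.0.3 with the builds GRCh38.p13 and GRCm39. How reads that fit several genes were shared out is not given in the sources used here. Values were rounded to whole counts, and 2 entries that name no gene, with a total of 0, were left out. A count of 3 was taken as the floor of detection. Such a floor covers counting error alone, because PCR copies of a molecule were not told apart.

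The 16 libraries at 72 h were fitted together in R 4.3.3 with edgeR 4.0.16 (filterByExpr at its defaults, count 10 and total 15, then TMM and the quasi-likelihood test, Benjamini-Hochberg adjustment). Contrasts were the SNX631 effect with and without R1881, their interaction and the R1881 effect. The 12 libraries at 24 h were fitted in the same way. As in the study, a called gene had an adjusted p under 0.01 and changed more than 1.5-fold. The series calls the replicates biological but does not say how they were grown, so the p values measure the spread between these libraries. In all 8 groups every pair of replicates differed by more than counting noise, and each library was counted once. Same-numbered libraries did not deviate together (correlations from -0.0677 to 0.0730, 0 of 24 over 0.1), so the main fit has no block.

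Gene lists were written from general knowledge, and the comparison, members and lists were chosen with earlier results of these data known. They are described by counts and medians. Named genes were KLK3, KLK2, CHRNA2, CDK8, CDK19 and MYC, the 15 highest and 15 lowest called log2 fold changes with a gene symbol and at least 2 CPM in the higher group, the 8 highest and 8 lowest interactions, and up to 4 called members of each list, or up to 2 with the smallest p where none was called. AGR2, AKAP12, ATF4, CENPN, COL5A2, ELOVL7, ERO1A, FKBP5, FN1, HLA-DMA, HLA-DMB, HMMR, HSP90B1, IQGAP2, KRT19, MED12, MED13, MERTK, MTHFD1L, MTHFD2, NUPR1, PIK3IP1, PSAT1, PSCA, PTGER4, PTPN21, SGK3, SLC1A4, SLC38A2, TMPRSS2, TRIB3, UGT2B17, XBP1 and the members of neighbor runs were named outside this rule, after their values were seen. Some genes are not reported here. Positions are those of GENCODE on GRCh38. The pipeline was tested on simulated data. Results were recomputed with size factors of DESeq2 1.42.0, with library totals, with its Wald test, with other filters, limits and sets of libraries, a replicate block, leaving out each library in turn and, chosen after seeing the data, thinning to the smallest total and list counts without the fold limit. Figures were drawn with matplotlib 3.10.9.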

Additional observations from a re-analysis of the deposited data

Results flagged for a closer look

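Among 134 named genes, each examined in both R1881 groups at 72 h (268 gene and group pairs), 19 pairs had a library that lay apart from its 3 replicates. Chance alone flags about 1 in 20 groups. In the R1881 group these were CHRNA2 in replicate 4 (86.0 CPM against 88.9 to 89.4), UGT2B11 in replicate 4 (315 CPM), HERC5 in replicate 4 (12.1 CPM), PMAIP1 in replicate 4 (7.90 CPM), COL12A1 in replicate 2 (7.21 CPM), MED17 in replicate 2 (27.4 CPM), LAT2 in replicate 3 (2.67 CPM) and SYP in replicate 3 (0.624 CPM). In replicate 1 of that group, the library that stood apart on the second principal component, they were UGT2B27P (3.77 CPM), SLC2A12 (76.1 CPM) and CTSL (61.8 CPM). In the R1881 and SNX631 group they were CHRNA2 in replicate 3 (39.0 CPM), CDK8 in replicate 1 (20.2 CPM), DUSP5 in replicate 1 (2.32 CPM), NCALD in replicate 2 (4.36 CPM), and in replicate 4 WDR75 (107 CPM), COX5A (199 CPM), PDIA3 (705 CPM) and GSR (394 CPM).

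In 30 named genes the SNX631 effect differed between cells with and without R1881 by the interaction test of edgeR, called at the same limits. Part of these genes were named because their interaction was among the highest or lowest. Their number and their split by sign therefore do not describe all genes. Of all 16074 genes tested, 192 (1.19%) had an interaction, 132 negative and 60 positive. Among the 30 named genes the difference (log2, with R1881 minus without) was negative in 17. It was -1.99 for UGT2B24P, -1.78 for KLK2, -1.53 for KLK3, -1.50 for SGK1, -1.38 for BMP6, -1.32 for F5, -1.22 for CEMIP2 and -1.18 for CLDN8. Smaller negative differences were -0.93 for SOX4, -0.93 for UGT2B28, -0.86 for CDKN1C, -0.78 for HES2, -0.78 for JAG1, -0.77 for MCM10, -0.75 for CDC45, -0.75 for HERC5 and -0.72 for GCNT1. Positive differences were 2.47 for ACSL5, 1.59 for CNTNAP3, 1.49 for SLC1A3, 1.37 for SOX9, 1.27 for PRRT2, 1.26 for CA5BP1, 1.26 for HMGN2P46, 1.23 for TENM1, 1.12 for CAPN2, 0.87 for DTX4, 0.79 for PLCH1, 0.75 for SLC6A9 and 0.69 for WNT10B. The interaction calls of ACSL5, CDKN1C, F5, HERC5, HES2, SLC1A3, UGT2B24P and WNT10B were lost under at least 1 alternative.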

How the results depend on the processing

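The count of genes changed by SNX631 with R1881 stayed within 1.5 times its value of 663 under every alternative except the limit of an adjusted p under 0.05 with no fold limit, which called 6873. The same limit gave 5864 genes for SNX631 without R1881, 2034 interactions, 9984 genes for R1881 and 5257 for Senexin B. The Wald test of DESeq2 called 542, and no filter on low counts called 730. Leaving out each library in turn gave 624 to 675 genes for SNX631 with R1881, 705 to 784 without it, 166 to 201 interactions, 3135 to 3235 genes for R1881 and 454 to 500 for Senexin B. With the replicate block 660 genes were called, and the counts over all genes stayed within 1.5 times of their values, whereas 5 list counts of 1 or 2 genes each lost 1 gene. No pairing of the libraries by replicate number was found, although a weak one could go unseen in such correlations. Scaling to library totals alone moved the split from 303 higher and 360 lower to 247 and 431. List medians were less stable. With library totals 37 of them moved by at least the spread between replicates and 11 did not. With no filter on low counts 27 moved and 21 did not, and with the Wald test 16 moved and 32 did not. Calls of genes near the fold limit or near 1 CPM are the least certain. ADAM7, CACNA1G, CCN3, CDC45, CDKN1C, CYP1A1, DUSP4, GALNT12, ITGB4, MET, ORM2, PMAIP1, SNAI1, SYP and TGFBR2 each lost their call without 1 library.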
